A study of Mus musculus with 6 samples.

Results

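The B cell and immunoglobulin genes examined here were Cd79a, Cd79b, Ms4a1, Ighm, Ighd, Igkc, Jchain and Igha. They were found by their symbols in the deposited tables, which gave 8 of 31130 genes listed for each tumor, by a rule that names symbols and no measured value. The symbols themselves were chosen with earlier results of these data known. All 8 passed the filter on low counts and were among the 11240 genes tested. Tumor tissue was collected on day 21 from wild-type female C57BL/6 mice, aged 6 to 8 weeks. Cells of the mouse line Lewis lung carcinoma (LLC), made to express EGFP, had been placed in the left lung of all of them on day 14. The IP + LC group had 3 tumors. Its mice had been given bleomycin, an antitumor drug whose toxicity scars lung tissue, at 2.0 mg/kg by oropharyngeal aspiration on day 0. The LC group had 3 tumors from mice without the bleomycin injury, and the study's text names no vehicle given to them. Both groups thus carried the same injected cells and differed in the lung injury before the injection. The labels name the cells as lung cancer cells, but the material was bulk tumor tissue with lung and immune cells of the host in it.

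B cells recognize antigen through a surface immunoglobulin made of heavy and light chains, which signals through the paired chains CD79A and CD79B. Mature naive B cells carry IgM and IgD together, which are spliced from the same long transcript, and IgD is lost when a cell switches class or becomes a plasma cell. Plasma cells secrete antibody at high rates, lose most B cell surface proteins and make the joining chain, which links IgM and IgA into polymers that epithelial cells carry into the airway lumen. The genes of the B cell surface and those of antibody secretion can therefore be read as separate groups.

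The libraries held between 592733 and 1631066 unique molecular identifiers (UMIs), of which the smallest was LC replicate 1. Levels are given as CPM, which are UMI counts scaled with TMM to a common total over the tested genes, and 3 UMIs corresponded to between 1.75 and 5.17 CPM. A gene was called at an adjusted p-value below 0.1 in edgeR's quasi-likelihood test. Of all genes tested, 36.4% were called, with 16.8% higher and 19.6% lower in the IP + LC group. The groups did not overlap for 43.1% of all genes tested, 21.6% higher and 21.5% lower.

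Of the 8 genes, 4 were lower in the IP + LC group, namely Cd79a, Cd79b, Ms4a1 and Ighd, which is 50% of the genes against 19.6% of all genes tested. None of them was higher, and neither edgeR at an unadjusted p under 0.05 nor DESeq2 nor limma called a higher one, with 0 genes each. The other 4, Ighm, Igkc, Jchain and Igha, did not pass the test. The groups did not overlap for 3 of the 8, all of them lower. Over all genes tested, this held for 43.1%, with 21.5% lower. The 8 genes had a median log2 fold change of −1.07, beside 0.02 for all genes tested. In bulk tissue, fewer cells of a type and less RNA per cell cannot be told apart.

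**Figure D1:**
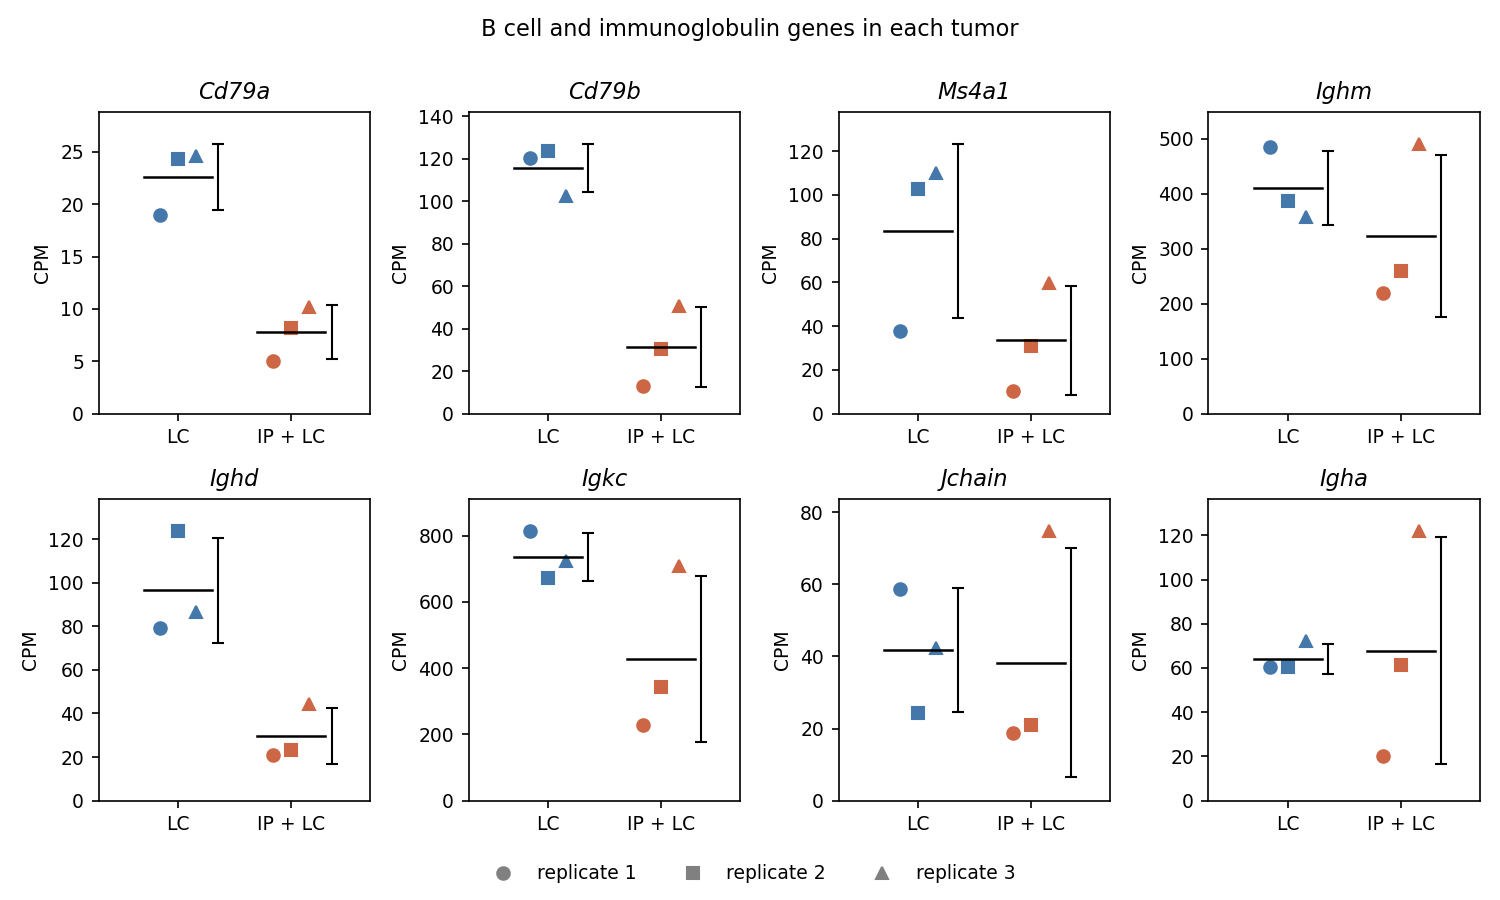
CPM of the 8 B cell and immunoglobulin genes in 3 LC and 3 IP + LC tumors, with 1 point for each tumor, a line at the mean and a bar of 1 SD. Cd79a, Cd79b and Ighd are lower in all 3 IP + LC tumors than in any LC tumor, and Ighm, Igkc, Jchain and Igha overlap between the groups.

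The signaling chains of the B cell receptor were lower in every IP + LC tumor. Cd79a, on chromosome 7 of GRCm38 (chr7:24897381-24902197, plus strand), had 18.9, 24.3 and 24.6 CPM in LC replicates 1, 2 and 3 and 5.08, 8.17 and 10.2 CPM in IP + LC replicates 1, 2 and 3. The groups did not overlap, and the log2 fold change was −1.55 (SE 0.32, adjusted p = 0.00893), a level 2.92-fold lower. These values rest on 11 to 31 UMIs in an LC tumor and 7 to 14 in an IP + LC tumor, and 20.5% of the Cd79a transcript matches the predicted gene Gm32220 at 95% identity or more.

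Cd79b (chr11:106311341-106314762, minus strand), the partner chain, had 121, 124 and 103 CPM in the LC tumors and 13.1, 30.4 and 50.8 CPM in the IP + LC tumors. The highest IP + LC tumor lay below the lowest LC tumor, and the log2 fold change was −1.88 (SE 0.39, adjusted p = 0.00886), a level 3.67-fold lower. Both chains were called under each of the alternatives in which they were tested.

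Ms4a1 (chr19:11249675-11266241, minus strand) encodes CD20, a surface protein of B cells that plasma cells lack. It had 37.9, 103 and 110 CPM in the LC tumors and 10.2, 30.9 and 59.5 CPM in the IP + LC tumors. LC replicate 1 lay below IP + LC replicate 3, so that the groups overlapped. The log2 fold change was −1.36 (SE 0.55, adjusted p = 0.0961). The call was lost without LC replicate 2, LC replicate 3, IP + LC replicate 1 or IP + LC replicate 2, with adjusted p-values of 0.253, 0.224, 0.248 and 0.270, and with library size in place of TMM (0.117).

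Of the heavy chain genes of naive B cells, Ighd was lower in every IP + LC tumor, and Ighm overlapped between the groups. Ighd (chr12:113406604-113416324, minus strand), the constant gene of IgD, had 79.2, 124 and 86.4 CPM in the LC tumors and 21.03, 23.3 and 44.3 CPM in the IP + LC tumors. The groups did not overlap, and the log2 fold change was −1.72 (SE 0.32, adjusted p = 0.00567). Ighm (chr12:113418558-113422730, minus strand), the constant gene of IgM, had 486, 387 and 358 CPM in the LC tumors and 220, 259 and 491 CPM in the IP + LC tumors. The highest of all 6 values was in IP + LC replicate 3 and the lowest in IP + LC replicate 1. The log2 fold change of Ighm was −0.34 (95% CI −1.05 to 0.36, adjusted p = 0.447). Without IP + LC replicate 3 it was −0.75 with an adjusted p of 0.0933, so that this tumor decided the call. Gene counts do not separate the membrane form of an IgM or IgD transcript from the secreted form.

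Igkc (chr6:70726435-70726966, plus strand), the constant gene of the kappa light chain, is used by naive B cells and by plasma cells of any class. It had 814, 672 and 723 CPM in the LC tumors and 230, 344 and 708 CPM in the IP + LC tumors. IP + LC replicate 3 lay among the LC tumors and the other IP + LC tumors lay far below them. The log2 fold change was −0.79 (95% CI −1.62 to 0.05, adjusted p = 0.150). It was called lower without IP + LC replicate 3 (−1.33, adjusted p = 0.0266), without LC replicate 1 (−0.70, adjusted p = 0.0632), without a filter on low counts (0.0785) and with limma (0.0372).

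The genes of secreted and polymeric antibody showed no difference between the groups that the test could call. Jchain (chr5:88519809-88527891, minus strand), the joining chain of polymeric IgM and IgA, had 58.5, 24.3 and 42.4 CPM in the LC tumors and 18.9, 21.01 and 74.8 CPM in the IP + LC tumors. Its log2 fold change was −0.08, with a 95% CI of −1.31 to 1.15 that allows a change of either sign. Igha (chr12:113254830-113260236, minus strand), the constant gene of IgA, had 60.3, 60.3 and 72.0 CPM in the LC tumors and 20.3, 61.3 and 122 CPM in the IP + LC tumors. The LC tumors lay close together, whereas IP + LC replicates 1 and 3 were the lowest and the highest of all 6. The log2 fold change was 0.07 (95% CI −1.06 to 1.21, adjusted p = 0.936).

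The IP + LC tumors differed among themselves in the same order for every gene of the group. IP + LC replicate 1 had the lowest value of its group for 8 of the 8 genes, and IP + LC replicate 3 the highest for 8 of the 8. No LC tumor was the highest for more than 3 genes or the lowest for more than 4. This order was not particular to the 8 genes. In IP + LC replicates 1, 2 and 3, Hbb-bs had 508, 772 and 1449 CPM, and Hba-a1 had 100, 165 and 300 CPM. The erythroid genes Hbb-bt and Hba-a2 followed it too, and the share of all genes with this order was not counted. Summed over the 8 genes, the LC tumors held 1520 to 1680 CPM and the IP + LC tumors 538 to 1560 CPM.

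All immunoglobulin genes together, with variable, joining and diversity segments, made up 0.167%, 0.137% and 0.131% of the UMIs of the LC tumors. They made up 0.0571%, 0.0798% and 0.155% of those of the IP + LC tumors. The groups overlapped, and the mean share fell from 0.145% ± 0.0192 to 0.0974% ± 0.0515 (SD, n = 3 each) with p = 0.3 in an exact permutation test, two-sided. With 3 tumors against 3, the exact permutation test cannot go below p = 0.1.

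Shares and ratios within a tumor do not depend on how the libraries were scaled, and 10 were compared between the groups. The shares of IgA and kappa and that of all immunoglobulin UMIs were part of the design, and the other 7 were added after the values were seen. After Benjamini-Hochberg adjustment over the 10, the smallest value was 0.143, and none passed a limit of 0.1. The intervals given for single tumors are exact Clopper-Pearson intervals at 95% and cover counting error only.

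IgD made up 12.6%, 21.5% and 16.6% of the heavy chain constant UMIs in the LC tumors and 7.95%, 6.48% and 6.54% in the IP + LC tumors. The groups did not overlap (p = 0.1, exact permutation test), although the intervals of LC replicate 1 (9.35% to 16.4%) and IP + LC replicate 1 (5.39% to 11.2%) did. The number of Ighm UMIs per Ighd UMI was 6.13, 3.13 and 4.15 in the LC tumors and 10.4, 11.1 and 11.1 in the IP + LC tumors. It was higher in all 3 IP + LC tumors than in any LC tumor (p = 0.1, exact permutation test). IgM held the largest heavy chain share in each tumor, with 67.2% to 77.0% in LC tumors and 72.0% to 83.0% in IP + LC tumors.

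IgA made up 9.56%, 10.5% and 13.8% of the heavy chain constant UMIs in the LC tumors and 7.67%, 17.0% and 18.0% in the IP + LC tumors. IP + LC replicate 1 was the lowest of all 6 and the other 2 IP + LC tumors were the highest. The mean shares were 11.3% ± 2.24 and 14.2% ± 5.70 (SD, n = 3 each), which differed by less than the spread of the IP + LC group (p = 0.4, exact permutation test). Per Ighd UMI there were 0.761, 0.487 and 0.833 Igha UMIs in the LC tumors and 0.966, 2.62 and 2.75 in the IP + LC tumors, without overlap.

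Counts of IgG were low throughout. The 4 IgG constant genes together had 3, 6 and 5 UMIs in the LC tumors and 5, 28 and 28 UMIs in the IP + LC tumors. This was 0.820%, 0.816% and 0.813% of the heavy chain constant UMIs in the LC tumors and 1.37%, 4.54% and 3.0% in the IP + LC tumors (p = 0.1, exact permutation test). The interval of IP + LC replicate 1 (0.446% to 3.17%) covered all 3 LC values. Ighg2b had 2, 5 and 1 UMIs in the LC tumors and 3, 18 and 11 in the IP + LC tumors, Ighg1 had 0 to 2 and 0 to 8, and Ighg2c 0 to 2 and 0 to 7. Ighg3 had no more than 2 UMIs in any tumor and Ighe had 0 in each, which allows up to 3 UMIs or 1.75 to 5.17 CPM. None of these 5 genes had enough UMIs to be tested.

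**Figure D2:**
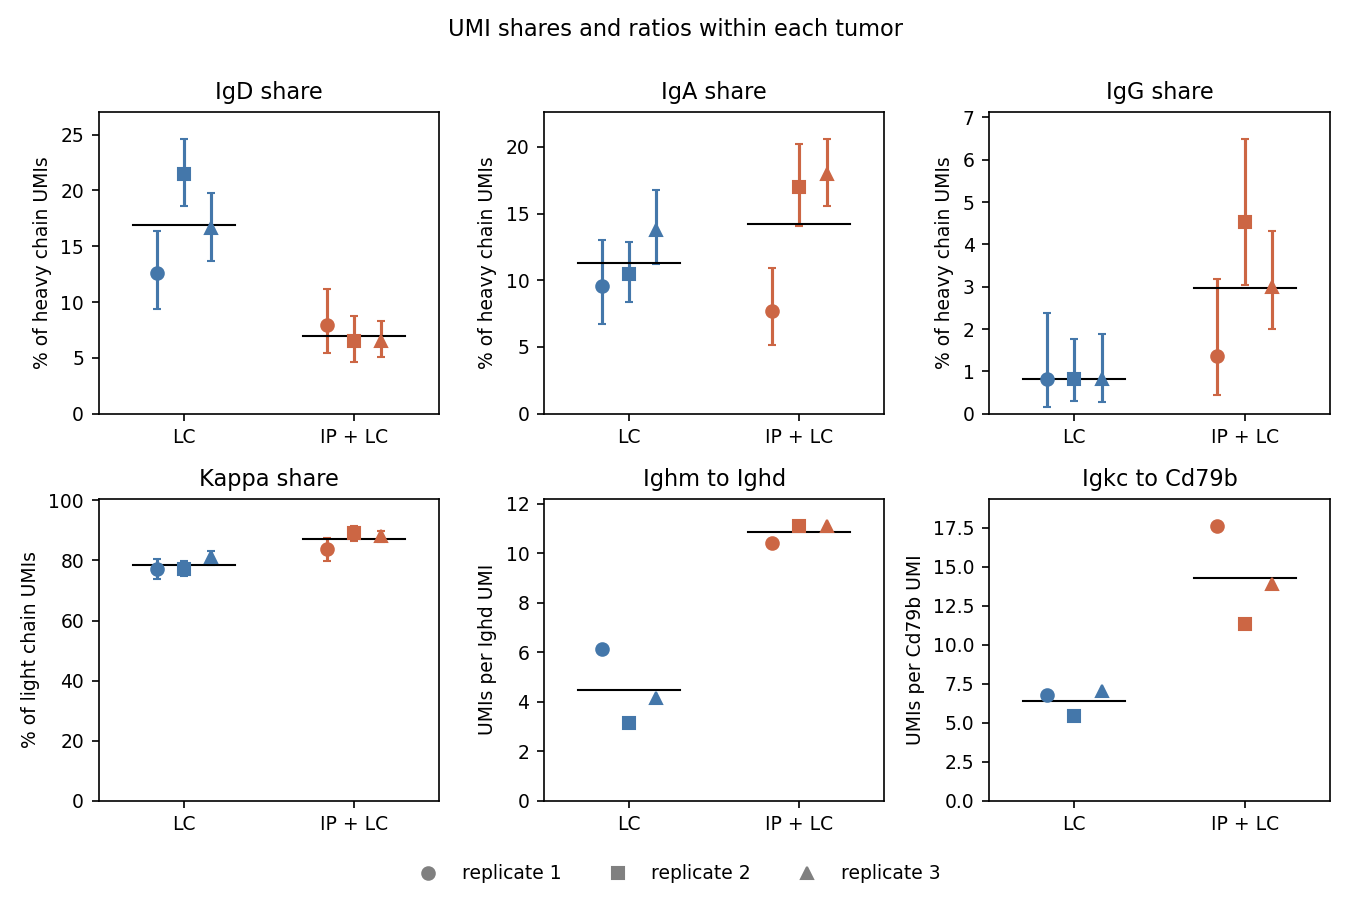
Share of IgD, IgA and IgG among heavy chain constant UMIs, share of kappa among light chain constant UMIs, and UMI ratios of Ighm to Ighd and Igkc to Cd79b in each tumor, with exact 95% intervals for shares and a line at the group mean. The IgD share is 12.6% to 21.5% in the LC tumors and 6.48% to 7.95% in the IP + LC tumors, and the kappa share is 77.3% to 81% and 83.9% to 89.2%.

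Of the 4 lambda light chain constant genes, 3 were tested, and Iglc2 and Iglc3 were called lower in the IP + LC group. Iglc2 had 80.9, 98.7 and 54.2 CPM in the LC tumors and 16.0, 9.34 and 25.4 CPM in the IP + LC tumors (log2 fold change −2.22, SE 0.37, adjusted p = 0.00354). Iglc3 had 82.7, 53.3 and 58.5 CPM in the LC tumors and 13.1, 14.01 and 20.3 CPM in the IP + LC tumors (log2 fold change −2.004, SE 0.27, adjusted p = 0.00157). Neither gene overlapped between the groups. Iglc1 had 75.8, 43.9 and 56.8 CPM in the LC tumors and 15.2, 18.1 and 50.1 CPM in the IP + LC tumors, and did not pass the test (log2 fold change −1.06, adjusted p = 0.101), just above the limit. All 3 genes were called lower with DESeq2, with limma, with DESeq2 size factors or upper quartile scaling, with the replicate block, with no filter on low counts, with 10 UMIs in every library, and without LC replicate 1 or IP + LC replicate 3. Iglc4 had 2 UMIs in 1 LC tumor and 0 in the other 5.

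Iglc2 and Iglc3 are near-identical, so that their separate counts are uncertain. At 95% identity or more over at least 81 bases, 98.5% of the shorter and 74.4% of the longer Iglc2 transcript match Iglc3, and 99.3% of the Iglc3 transcript matches Iglc2 or 2010309G21Rik. The exons of 2010309G21Rik, on the opposite strand, overlap 20.6% of the Iglc3 exons. Their coding parts share 96.2% of aligned positions, and the parts after the coding sequence, where 3′ libraries read, share 90.2%. Iglc1 shares 73.4% and 52.1% with Iglc2. An early stretch of the coding sequences is shown because it makes the near-identity of Iglc2 and Iglc3 visible, although 3′ libraries read farther downstream. Each line holds 90 bases of GRCm38, 5′ to 3′ on the minus strand, from Iglc2 (chr16:19198396-19200351), Iglc3 (chr16:19065230-19065681) and Iglc1 (chr16:19061618-19062071). Capitals in the lines of Iglc2 and Iglc3 mark the 7 bases that differ between these genes, and capitals in the line of Iglc1 the 23 that differ from Iglc2.
Iglc2: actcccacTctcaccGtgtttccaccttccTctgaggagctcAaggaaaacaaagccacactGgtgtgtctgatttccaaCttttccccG
Iglc3: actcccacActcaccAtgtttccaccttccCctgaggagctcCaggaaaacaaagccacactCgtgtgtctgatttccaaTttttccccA
Iglc1: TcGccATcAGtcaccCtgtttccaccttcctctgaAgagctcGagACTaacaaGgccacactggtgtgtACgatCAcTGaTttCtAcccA

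Summed over the lambda genes, 139, 252 and 200 UMIs were counted in the LC tumors and 61, 71 and 132 in the IP + LC tumors, a sum that does not depend on how reads were divided between Iglc2 and Iglc3. Kappa made up 77.3%, 77.3% and 81% of the light chain constant UMIs in the LC tumors and 83.9%, 89.2% and 88.1% in the IP + LC tumors. The mean share was 78.5% ± 2.14 for LC and 87.1% ± 2.83 for IP + LC tumors (SD, n = 3 each, p = 0.1, exact permutation test), and the groups did not overlap. The exact interval of IP + LC replicate 1 (79.8% to 87.4%) overlapped those of LC replicate 1 (73.8% to 80.6%) and LC replicate 3 (78.5% to 83.3%).

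Antibody transcripts were also compared with the receptor chain directly. There were 6.76, 5.43 and 7.05 Igkc UMIs per Cd79b UMI in the LC tumors and 17.6, 11.3 and 13.9 in the IP + LC tumors. For Jchain, there were 0.486, 0.196 and 0.413 UMIs per Cd79b UMI in the LC tumors and 1.44, 0.692 and 1.47 in the IP + LC tumors. Both ratios were higher in all 3 IP + LC tumors than in any LC tumor (p = 0.1 each, exact permutation test). Cd79b had the largest fall of the 8 genes (−1.88) and was taken as divisor after the values were seen. Higher ratios therefore partly restate its own lower level. Ratios to Cd79a or Ms4a1 were not computed, so the values do not extend to other B cell genes.

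Other genes of the B cell surface were lower in the IP + LC group. Of 22 genes on this list, 19 were tested, 14 of which (73.7%, against 19.6% of all genes tested) were called lower and 1 higher, with a median log2 fold change of −1.21. The filter on low counts asked for 7.41 CPM, before TMM scaling, in 3 tumors, and Fcrl1 and Cxcr5 reached that level in the LC tumors alone, so that they entered the test through the group in which they were high. Without genes of this kind, a count added after the data were seen, 12 of 17 surface genes were called lower (70.6%, against 18.1% of all genes). The gene called higher was Cd180 (0.96, adjusted p = 0.0440), an innate receptor that macrophages express as well, and its call was lost in thinned libraries and without LC replicate 2, IP + LC replicate 2 or IP + LC replicate 3 (adjusted p up to 0.137). Vpreb3, a protein of the endoplasmic reticulum of B cells that binds immunoglobulin chains, had 34.4, 72.1 and 52.5 CPM in the LC tumors and 6.53, 9.34 and 7.26 CPM in the IP + LC tumors. Its log2 fold change of −2.80 (SE 0.33, adjusted p = 0.00113) was the largest of the list. Fcrl1 (−1.88), the IgM receptor gene Fcmr (−1.82) and Cd24a (−1.80), which lung epithelium also expresses, were lower as well, and these 4 genes were called whichever tumor was left out. The log2 fold change was −0.86 (adjusted p = 0.0685) for the inhibitory receptor gene Cd22, −1.72 (adjusted p = 0.0227) for the IgE receptor gene Fcer2a and −1.34 (adjusted p = 0.0682) for the follicle homing receptor gene Cxcr5. The calls of these 3 genes were lost without LC replicate 2, and all but that of Fcer2a also without IP + LC replicate 1 or IP + LC replicate 2. Those of Cd22 and Cxcr5 were lost without IP + LC replicate 3 too, and that of Cd22 without LC replicate 3. Adjusted p-values reached 0.231 for Cd22, 0.108 for Fcer2a and 0.243 for Cxcr5 over all tumors left out. Over all alternatives in which they were tested, the call was lost in 9 of 15 for Cd22, 1 of 15 for Fcer2a and 7 of 15 for Cxcr5. Cr2, a complement receptor gene, did not pass the test (−1.19, adjusted p = 0.156). The number called lower was 6 when LC replicate 2 was left out, 7 when IP + LC replicate 1 or IP + LC replicate 2 was left out, and 4 of 6 when only genes with 10 UMIs in every library were tested.

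**Figure D3:**
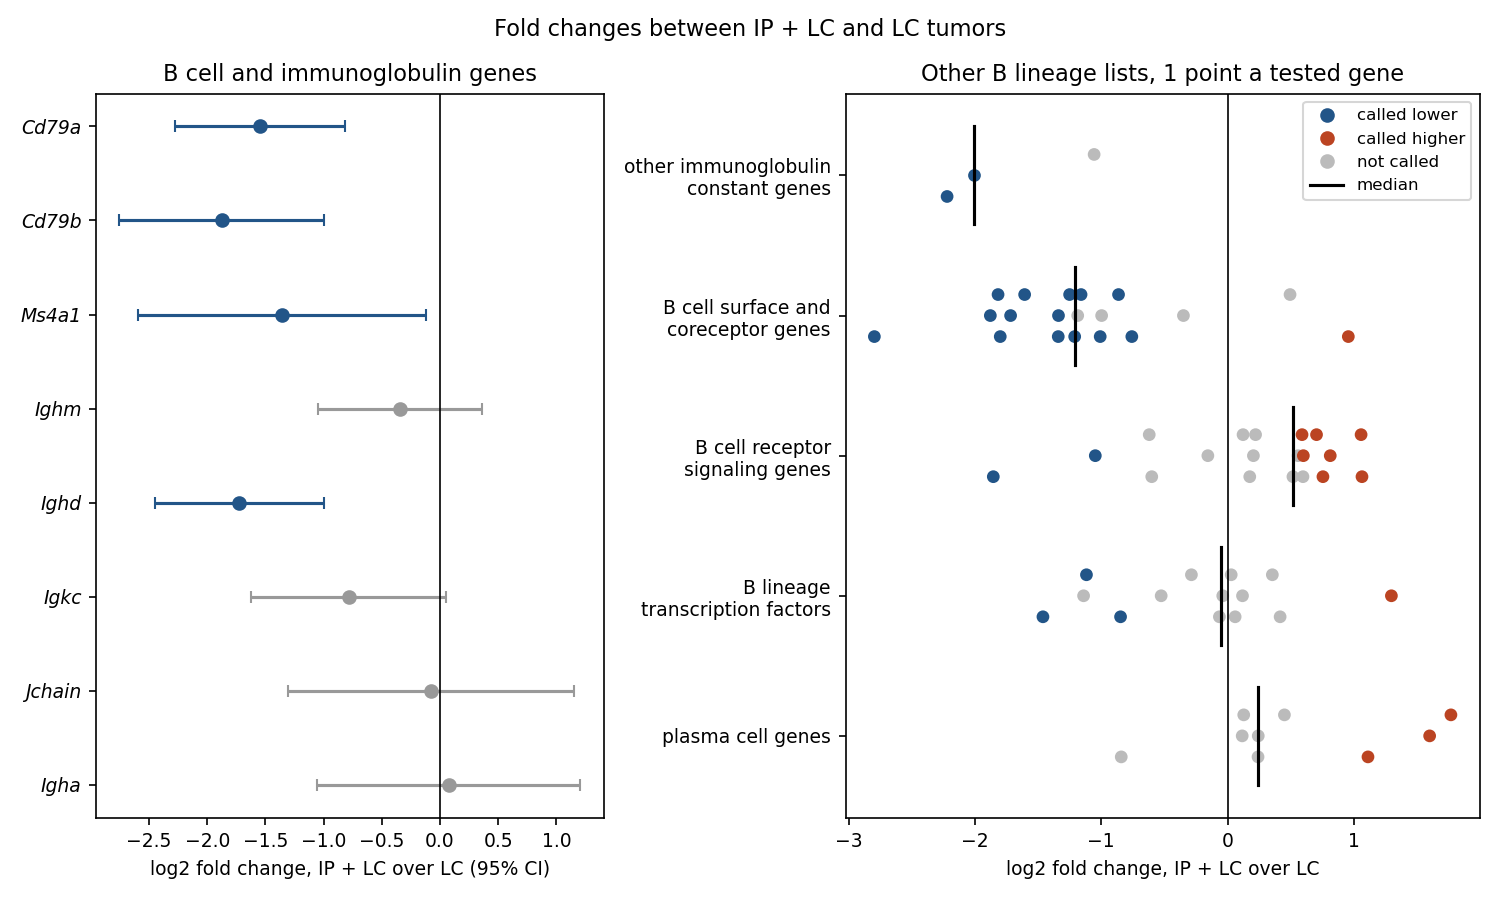
Left, log2 fold change of IP + LC over LC with its 95% CI for the 8 B cell and immunoglobulin genes, in blue where called lower. Right, log2 fold changes of the tested genes of other B lineage lists, with 14 of 19 surface genes called lower and 7 of 19 receptor signaling genes called higher.

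Among genes that act downstream of the receptor, more were called higher than lower. Of 20 receptor signaling genes, 19 were tested, 2 were called lower and 7 higher, with a median log2 fold change of 0.52, and the share called higher was 36.8% against 16.8% of all genes tested. The share called lower was 10.5%, under the 19.6% of all genes tested. The B cell kinase gene Blk (−1.85, adjusted p = 0.0121) and the scaffold gene Bank1 (−1.05, adjusted p = 0.0873) were lower. Blk had 12, 17 and 15 UMIs in the LC tumors and 3, 7 and 8 in the IP + LC tumors, and passed the filter on low counts through the LC tumors alone. Pik3cd (1.06, adjusted p = 0.0133), the phosphatase gene Inpp5d (1.06, adjusted p = 0.0174) and the kinase gene Lyn (0.70, adjusted p = 0.0692), which myeloid cells express too, were higher. Syk, Btk and Blnk did not pass the test, with log2 fold changes of −0.16, 0.12 and 0.21. Bank1 was not called without LC replicate 2, LC replicate 3, IP + LC replicate 1 or IP + LC replicate 2 (adjusted p up to 0.253), nor Lyn without LC replicate 3 or any 1 IP + LC tumor (up to 0.183). Over all alternatives, the call of Bank1 was lost in 6 of 17 and that of Lyn in 5 of 17. The number called higher was 3 without LC replicate 3 and 3 without any 1 of the IP + LC tumors.

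Of 15 transcription factors of the B lineage, 14 were tested, 3 were called lower and 1 higher, with a median log2 fold change of −0.05. The shares were 21.4% lower and 7.14% higher, against 19.6% and 16.8% of all genes tested, so that the lower calls were near the background. Ebf1 (−1.46, adjusted p = 0.0713), Id3 (−1.12, adjusted p = 0.00713) and Foxo1 (−0.85, adjusted p = 0.0982) were lower and Irf8, which macrophages and dendritic cells also use, was higher (1.30, adjusted p = 0.00470). Ebf1 had 3 UMIs in LC replicate 1 and 64 in each other LC tumor. Pax5, which maintains B cell identity, had 2 to 15 UMIs in a tumor and a log2 fold change of −0.29 (adjusted p = 0.706). Pou2af1 (−1.14, adjusted p = 0.120) and Spib (−0.04, adjusted p = 0.965) did not pass the test either. Ebf1 and Foxo1 were called with LC replicate 1 left out but with no other tumor left out (adjusted p up to 0.252 and 0.392). The number called lower was 5 without LC replicate 1 and 1 without any other tumor but IP + LC replicate 3.

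Of 14 plasma cell genes, 9 were tested, and 3 were called higher (33.3%, against 16.8% of all genes tested) and none lower (against 19.6%). At an unadjusted p under 0.05 in edgeR, with DESeq2 and with limma the number lower was 0 as well. The genes called higher were Slamf7 (1.77, adjusted p = 0.0141), which other leukocytes also carry on their surface, and Creld2 (1.60, adjusted p = 0.0225) and Fkbp11 (1.11, adjusted p = 0.0728), which serve protein folding in the endoplasmic reticulum of many cell types. The genes nearest to plasma cells did not pass the test. Mzb1, a chaperone of antibody assembly, had 17.2, 12.5 and 22.9 CPM in the LC tumors and 2.90, 6.42 and 20.3 CPM in the IP + LC tumors (log2 fold change −0.84, adjusted p = 0.318), with IP + LC replicate 1 the lowest and replicate 3 among the LC tumors as for Igkc. The log2 fold changes of Xbp1, Prdm1 and Sdc1, which many other cells express, were 0.12, 0.24 and 0.24. Irf4 had 1 to 14 UMIs and Tnfrsf17, the plasma cell survival receptor, 0 to 1 UMIs in a tumor, and neither was tested. The number called higher was 6 without LC replicate 1, and the call of Fkbp11 was lost without any other tumor (adjusted p up to 0.265).

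Promoter sequences were examined for 3 genes. RefSeq promoter sequences, from 250 bases before to 50 bases after the start on GRCm38.p6, were matched for 2 of the 8 genes, Cd79a and Jchain, and for Vpreb3, and are shown because Cd79a and Vpreb3 were lower and Jchain was not. Motifs searched on both strands were the octamer ATGCAAAT, read by OCT factors, CCCNNGGG for EBF1, the E-box CAGGTG for E2A and GAGGAA for PU.1. Of 32851 promoters of this length, 1.74% held the octamer, 13.7% CCCNNGGG, 20.2% CAGGTG and 28.3% GAGGAA. Capitals mark matches in lines that run 5′ to 3′ with the transcript.
Cd79a, chr7:24897247-24897546, plus strand: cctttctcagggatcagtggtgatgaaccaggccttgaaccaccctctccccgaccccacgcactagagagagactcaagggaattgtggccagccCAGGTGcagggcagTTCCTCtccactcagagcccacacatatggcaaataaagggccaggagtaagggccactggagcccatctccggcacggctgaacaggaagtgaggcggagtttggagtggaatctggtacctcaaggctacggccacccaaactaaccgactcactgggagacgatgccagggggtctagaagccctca
Jchain, chr5:88527848-88528147, minus strand: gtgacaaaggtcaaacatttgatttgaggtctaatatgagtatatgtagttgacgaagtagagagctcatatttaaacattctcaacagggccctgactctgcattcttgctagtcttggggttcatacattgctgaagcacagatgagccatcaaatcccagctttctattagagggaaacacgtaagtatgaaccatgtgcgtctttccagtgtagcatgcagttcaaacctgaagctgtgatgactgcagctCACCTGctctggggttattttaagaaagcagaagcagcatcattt
Vpreb3, chr10:75948050-75948349, plus strand: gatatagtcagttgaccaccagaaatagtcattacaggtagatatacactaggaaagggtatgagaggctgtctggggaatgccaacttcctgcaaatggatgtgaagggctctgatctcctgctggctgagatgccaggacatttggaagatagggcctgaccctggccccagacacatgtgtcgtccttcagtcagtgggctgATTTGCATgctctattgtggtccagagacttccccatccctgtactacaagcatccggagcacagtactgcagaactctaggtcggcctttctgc

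In the Cd79a promoter, the E-box lay at −154 and the PU.1 letters, on the reverse strand, at −140 from the start. In the Jchain promoter, the E-box was read on the reverse strand at 5 bases from the start. In the Vpreb3 promoter, the octamer was read on the reverse strand at −45. The matches did not overlap each other. The letters of the octamer are not in the windows of Cd79a and Jchain. A match describes letters in a window and does not show that a factor binds there.

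Signals that recruit and sustain B cells were listed as 17 genes, of which 16 were found in the counts by symbol and 11 were tested. Cxcl13, the chemokine that draws B cells through CXCR5, had 15.5, 25.1 and 7.63 CPM in the LC tumors and 25.4, 61.9 and 89.3 CPM in the IP + LC tumors. The groups did not overlap, although LC replicate 2 and IP + LC replicate 1 lay close together. The log2 fold change was 1.85 (SE 0.52, adjusted p = 0.0294), and the call was lost without LC replicate 3 or IP + LC replicate 3 (adjusted p up to 0.102). The cytokine receptor gene Il21r was higher as well (1.32, adjusted p = 0.0453), but not without LC replicate 2, LC replicate 3, IP + LC replicate 2 or IP + LC replicate 3 (adjusted p up to 0.180). In all, 2 genes of this list were called higher (18.2%, near the 16.8% of all genes tested) and 4 lower (36.4%, against 19.6%). Some of the lower genes, Cxcr5 and Tnfrsf13c among them, were also counted on the surface list, so the 2 lists are not separate observations. Without genes that passed the filter through 1 group alone, 3 of 10 were lower (30%, against 18.1% of all genes). The lower genes included Cxcr5, which passed the filter through the LC tumors alone, and Tnfrsf13c, the receptor for the survival factor BAFF (−1.21, adjusted p = 0.0957). Tnfsf13b, which encodes BAFF, did not pass the test (−0.80, adjusted p = 0.140). The lymphoid chemokine genes Ccl19 and Ccl21a had at most 1 UMI in a tumor. With DESeq2, 0 genes of this list were called lower, and leaving out LC replicate 2 or IP + LC replicate 1 also left 0. None was called higher without LC replicate 3 or IP + LC replicate 3.

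Among the genes that move antibody or bind its constant part, Pigr, the epithelial receptor that carries polymeric IgA and IgM into the lumen, had 49.9, 106 and 82.2 CPM in the LC tumors. It had 29.0, 27.4 and 26.1 CPM in the IP + LC tumors, with a log2 fold change of −1.56 (SE 0.28, adjusted p = 0.00482). The neonatal Fc receptor gene Fcgrt was lower too (−0.78, adjusted p = 0.0308). The IgG receptor genes Fcgr4 (2.45, adjusted p = 0.000859), Fcgr1 (2.42, adjusted p = 0.00163) and Fcgr3 (0.94, adjusted p = 0.0426) and the cytosolic antibody receptor gene Trim21 (1.01, adjusted p = 0.0149) were higher. Fcgr2b, the inhibitory receptor that B cells share with macrophages (0.80, adjusted p = 0.148), and Fcer1g (0.63, adjusted p = 0.159) did not pass the test, and Fcamr had 1 to 4 UMIs. Of the 8 genes tested on this list, 4 were higher (50%, against 16.8% of all genes tested) and 2 were lower (25%, near the background of 19.6%). The calls of Pigr, Fcgr4, Fcgr1 and Trim21 held whichever tumor was left out, and those of Fcgrt and Fcgr3 did not (adjusted p up to 0.137 and 0.163), among others without IP + LC replicate 2 or 3.

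Markers of early and germinal center B cells were near the limit of detection. Vpreb1 had 0 UMIs in every tumor, which allows up to 3, Igll1 had 1 in a single tumor, and Dntt, Rgs13 and Gcsam had no more than 4. Rag1 had 4 UMIs in LC replicate 3 and 0 elsewhere. S1pr2 (0.29, adjusted p = 0.517) and Mybl1 (0.82, adjusted p = 0.413), which other cells express, did not pass the test. With limma, 1 gene of this list was called higher, and with edgeR at an unadjusted p under 0.05 and with DESeq2 0 were called in either direction.

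Markers of other cells changed alongside the B cell genes. Of 12 normal lung genes, 11 were called lower (91.7%, against 19.6% of all genes tested), led by Scgb1a1 (−3.22), Sftpa1 (−2.54), Hopx (−2.28) and Cldn5 (−2.26). The 12 genes summed to 79600 to 87900 CPM in the LC tumors and 9790 to 17100 CPM in the IP + LC tumors. Erythroid genes, a sign of blood in the tissue, summed to 1740 to 7430 CPM and 769 to 2150 CPM, and Hbb-bs (−1.73), Hbb-bt (−1.73), Hba-a1 (−1.55) and Hba-a2 (−1.60) were called lower, while Alas2 and Slc4a1 had 0 to 11 UMIs. The part of normal lung tissue and of blood in the lower B cell genes was not tested. The erythroid genes called lower were 4 of the 4 tested (100%, against 19.6% of all genes tested). Their number fell to 0 without IP + LC replicate 1 or 2.

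The sum of the T cell genes overlapped between the groups, with 227 to 323 CPM in the LC tumors and 189 to 355 CPM in the IP + LC tumors. Of 10 tested, 1 was lower (10%, under the 19.6% of all genes tested). This was Cd2 (−0.77, adjusted p = 0.0401), though not without LC replicate 2, LC replicate 3, IP + LC replicate 1 or IP + LC replicate 2. With edgeR, also at an unadjusted p under 0.05, with DESeq2 and with limma, 0 were higher. Of 10 macrophage genes, Fcgr1, C1qa (1.36), C1qc (1.28), Itgam (1.24) and Adgre1 (0.74) were higher, Lyz2, which alveolar type 2 cells also make, was lower (−1.11), and C1qb, Cd68, Csf1r and Mrc1 did not pass the test. The macrophage shares were 50% higher and 10% lower, against 16.8% and 19.6% of all genes tested. The number higher was 8 without LC replicate 1 and 2 without any other tumor. Their sum, of which Lyz2 held the most, was 13300 to 15800 CPM and 8130 to 9770 CPM. Plasmacytoid dendritic cells share some genes with B cells, and of the genes listed as their markers 4 were tested. Bst2 (1.09) and Ly6c2 (0.83) were higher (50%, against 16.8% of all genes tested). Cox6a2 was lower (−2.29, 25% against 19.6%) and Tcf4 did not pass the test (−0.36). Neither Bst2 nor Ly6c2 was called without IP + LC replicate 2, and Bst2 was also not called without LC replicate 2, LC replicate 3 or IP + LC replicate 3 (adjusted p up to 0.168). The defining marker Siglech had 1 to 16 UMIs, Ccr9 3 to 12, Pacsin1 2 to 12 and Klk1 1 to 2, and none was tested. The calls of Bst2, Ly6c2 and Cox6a2 are therefore not read as a change in these cells. The part of these cells in the values of the B cell and immunoglobulin genes was not tested.

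**Figure D4:**
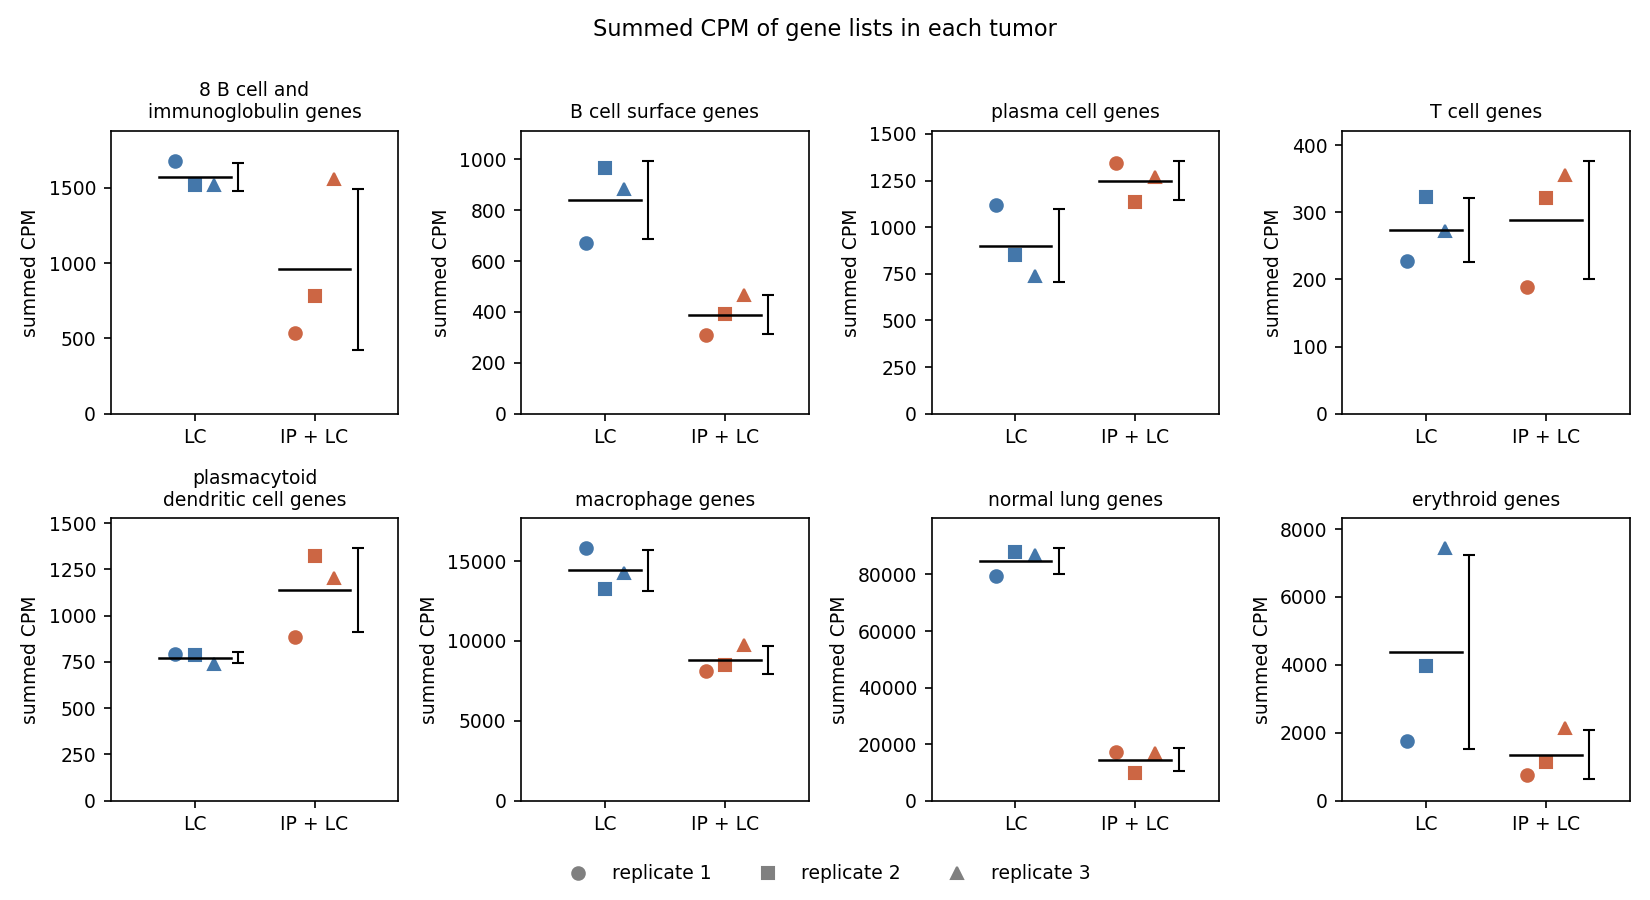
Summed CPM of the 8 B cell and immunoglobulin genes and of marker lists in each tumor, with a line at the mean and a bar of 1 SD. B cell surface genes sum to 672 to 966 CPM in the LC tumors and 311 to 468 CPM in the IP + LC tumors, normal lung genes fall from at least 79600 to at most 17100 CPM, and T cell genes overlap between the groups. Cd24a, which lung epithelium also expresses, holds 214 to 339 CPM of the surface sums in the LC tumors and 73.5 to 102 CPM in the IP + LC tumors.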

How the data were processed

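RNA of 3 LC and 3 IP + LC tumors was measured by bulk RNA barcoding and sequencing, which primes at the 3′ end and adds a UMI of 10 nucleotides. Per the submitters' processing notes, the authors used UMI-tools 1.1.1, Trim Galore 0.6.7, HISAT2 2.2.1 on GRCm38 and featureCounts 2.0.1, and the files deposited hold raw UMI counts for each gene. The annotation release and strand setting are not given in the sources used here. The notes also name DESeq2, and no result of it was used.

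From the counts, edgeR 4.0.16 in R 4.3.3 kept genes by filterByExpr (minimum count 10, minimum total 15, smallest group 3), scaled libraries by TMM and compared the groups with the quasi-likelihood test without a block, with Benjamini-Hochberg adjustment over 11240 genes. Levels are counts of molecules from 3′ ends and were not divided by transcript length. Shares and ratios were compared by exact permutation tests (scipy 1.17.1). Positions came from GENCODE M21, and near-identical transcripts from blastn 2.17.0+. The genes and lists were chosen with earlier results of these data known. The text names all genes of lists of up to 10, and of longer lists the called genes with the 4 largest fold changes and a fixed set. Cd180, Ccl19 and Ccl21a, outside this rule, were named after their values were seen. Some genes of the lists are not reported here by name. Alternatives were other scalings, filters and tests (DESeq2 1.42.0, limma 3.58.1), a replicate block, leaving out each tumor, and thinning of libraries to 592733 UMIs (random seed 1). The labels number the samples but do not say that each came from its own mouse. The study speaks of tumor samples and does not say so either, so p-values measure the spread between these samples.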

Additional observations from a re-analysis of the deposited data

How the results depend on the processing

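Cd79b and Ighd were called lower under each alternative, with log2 fold changes of −2.36 to −1.49 and −2.10 to −1.50, and Cd79a under each of the 16 in which it was tested (−1.73 to −1.30). Between 3 and 6 of the 8 genes were called, all lower, and 3 at an adjusted p below 0.05. Of all genes tested, 57% were called without LC replicate 1, 55.5% with limma and 16.4% without a filter on low counts, each with 5 of the 8. The share was 26.7% without IP + LC replicate 3, where 6 of the 8 were called. Jchain turned positive with library size only (0.0754), without a filter on low counts (0.0345) and without LC replicate 1 (0.19), IP + LC replicate 1 (0.25) or IP + LC replicate 2 (0.23), within a range of −0.98 to 0.25 over tumors left out. Igha turned negative with limma (−0.24), in thinned libraries (−0.22), with the replicate block (−0.14) and without IP + LC replicate 3 (−0.62), within −0.62 to 0.53 over tumors left out. None of these values was called, and the cause was not tested.

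Over all genes, 4088 were called. The number was 6233 with limma, 2413 in thinned libraries, where fewer genes were tested, and 2265 to 6691 with 1 tumor left out, the highest without LC replicate 1 and the lowest without IP + LC replicate 2. Of the calls, 46.1% were higher, against 58.3% with library size only, where the median of all genes lay at 0.18. The difference in the immunoglobulin share ranged from −0.0765 to −0.0273, in the IgA share from 1.06 to 6.23 and in the kappa share from 7.44 to 10.1 percentage points with 1 tumor left out. Over all alternatives, the surface genes called lower numbered 4 to 17 beside 14, receptor signaling genes called higher 3 to 10 beside 7, transcription factors called lower 1 to 5 beside 3, plasma cell genes called higher 2 to 6 beside 3, survival and chemoattraction genes called lower 0 to 6 beside 4, macrophage genes called higher 2 to 8 beside 5 and normal lung genes called lower 10 to 12 beside 11. In the same alternatives, 16.4% to 57% of all genes tested were called in either direction, so that the background moved with these counts.

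Replicate numbers did not pair the tumors. Deviations of same-numbered tumors correlated at 0.0234, −0.111 and 0.0998, and a fit with the replicate number as a block called 3410 genes and 4 of the 8 genes. Cd79a rested on 7 to 31 UMIs in a tumor, which limits its precision.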

Other observations

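The 3′ libraries read few variable segments. Over 122 variable segments listed, 29 of them pseudogenes, 11, 43 and 109 UMIs were counted in the LC tumors and 25, 24 and 38 in the IP + LC tumors, and none had enough UMIs to be tested. Kappa segments held 181 of the 250 UMIs, heavy chain segments 44 and lambda segments 18. The pseudogene Igkv15-102 had the most, with 0, 4 and 14 UMIs in the LC tumors and 1, 6 and 0 in the IP + LC tumors. Iglv1 had 0, 1 and 0 UMIs in the LC tumors and 0, 3 and 9 in the IP + LC tumors. Igkv4-69 had 12 UMIs in all, Igkv20-101-2 had 10, and all 7 of Igkv4-74 came from LC replicate 3.

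The genes whose profiles over the 6 tumors lay nearest to those of Cd79a, Igkc and Igha were read as a description, by the root mean square distance between centred values of log2(CPM + 4). Nearest to Igkc were the lambda gene Iglc1 (0.195) and the antibody chaperone gene Mzb1 (0.207), followed by Zfp709 (0.208), Itm2a (0.221) and Klc4 (0.230). Nearest to Cd79a were Calhm5 (0.0749), Rph3al (0.0835), Grtp1 (0.0943), Paip2 (0.105) and Gpcpd1 (0.105), none of them a gene of the B lineage lists. Nearest to Igha were Gpr34 (0.280), Golga7 (0.342), Tnfrsf26 (0.346), Cd3g (0.347) and Scn3b (0.349), at greater distances than for Cd79a and Igkc.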
